A study of Mus musculus with 7 samples.

Results

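PU.1 sites seen only at 36 h of RANKL were peaks of the PU.1 36 h list with a score of at least 17.6 that overlapped no PU.1 peak of myeloid precursors (MPs) and no PU.1 peak of the 72 h list by 1 bp or more, on chromosomes 1 to 19 and X. The rule found 1272 such sites among 46447 peaks past the same minimum (2.74%), out of 71941 peaks of the 36 h list and 239001 peaks of all 7 lists. The sites were thus selected on their measured 36 h score and on the absence of a call in the other lists, so their scores and their absence from those lists are described here and not tested. Throughout, they are called 36 h only sites.

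The study mapped PU.1 and MITF in mouse bone marrow myeloid cells by ChIP-Seq, in which chromatin fragments carrying a protein are recovered with an antibody and sequenced, and loci where the sequenced tags pile up are called as peaks. Marrow of C57BLACK6 mice of 4 to 6 weeks was grown for 3 days with 50 ng per mL CSF1 to give MPs, and part of the cells then received 100 ng per mL RANKL for 36 or 72 h, so that CSF1 is common to all groups. Antibodies against PU.1 and MITF (5 µg) were used on MPs and on cells at both RANKL times, and a control IgG was used on MPs. Each condition has 1 library, so no difference between times has a replicate check, and the 95% Wilson intervals given here cover counting error only. No gene was deleted in these cells and the lists hold no RNA, so the labelled cell type could not be checked against marker transcripts.

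PU.1, the product of Spi1, is an ETS family factor that binds GGAA-centered sequences and helps to keep enhancers of macrophages, B cells and osteoclast precursors open. MITF is a basic helix-loop-helix factor that binds E-box sequences and acts with PU.1 at osteoclast genes. RANKL drives precursors to become osteoclasts, the cells that resorb bone, and early in this response it induces AP-1 factors such as Fos, without which osteoclasts do not form.

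The score of a peak is its number of tags, scaled to a common library size by the peak caller. In the 36 h list scores were whole multiples of 1.48, so that 17.7, the lowest score among the sites, stood for 12 tags. The lowest score of any peak was 10.2 in the MP list (6 tags), 10.3 in the 36 h list (7 tags) and 10.3 in the 72 h list (7 tags). A site absent from a list is one without a called peak there, which leaves room for tags below those minimums. The MP list held 76243 peaks and the 72 h list 77072.

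The sequences below carry the main findings. The first 4 sites are those with the highest scores, and the first 2 of them are also the highest that overlap a MITF 36 h peak. The next 4 lie more than 1000 bp from any MP or 72 h PU.1 peak, 3 of them being the highest such sites with an AP-1 sequence outside exons and at least 1 kb from a gene start and 1 the highest of all such sites, and they were chosen after their values were seen. The last, also chosen then, is the PU.1 sequence beside the start of Ocstamp. The first 8 are the 150 bp around the peak center and the last is 30 bp, all on the plus strand of mm9, with AGGAAGT (the core of the PU.1 motif) and TGANTCA (the AP-1 motif) on either strand in capitals, and GAGGAAGT in the last. Sites are named after the gene with the nearest transcription start site (TSS).
Fam105a, chr15:27632529-27632678, score 137.5: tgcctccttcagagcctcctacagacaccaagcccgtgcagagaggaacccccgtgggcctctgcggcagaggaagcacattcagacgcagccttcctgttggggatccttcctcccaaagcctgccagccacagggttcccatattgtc
Smc6, chr12:11336035-11336184, score 130.1: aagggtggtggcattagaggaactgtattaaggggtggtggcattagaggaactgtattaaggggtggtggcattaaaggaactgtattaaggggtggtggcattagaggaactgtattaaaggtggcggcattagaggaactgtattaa
A930006K02Rik, chr16:91452550-91452699, score 127.1: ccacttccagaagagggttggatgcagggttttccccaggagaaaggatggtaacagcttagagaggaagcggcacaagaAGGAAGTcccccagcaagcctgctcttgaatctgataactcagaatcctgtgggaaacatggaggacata
U1, chr6:53398665-53398814, score 122.7: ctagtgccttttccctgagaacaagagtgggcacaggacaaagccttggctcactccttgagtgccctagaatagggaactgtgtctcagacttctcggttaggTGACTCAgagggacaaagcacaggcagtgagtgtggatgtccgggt
Gtf3c5, chr2:28444179-28444328, score 66.5: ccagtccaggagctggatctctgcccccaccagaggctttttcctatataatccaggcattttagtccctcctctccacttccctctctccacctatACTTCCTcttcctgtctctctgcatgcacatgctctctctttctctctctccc
Arg1, chr10:24651423-24651572, score 54.7: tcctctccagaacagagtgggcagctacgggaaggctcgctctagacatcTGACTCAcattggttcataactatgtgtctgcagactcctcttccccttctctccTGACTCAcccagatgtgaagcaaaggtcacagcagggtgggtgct
Stxbp3a, chr3:108589583-108589732, score 48.8: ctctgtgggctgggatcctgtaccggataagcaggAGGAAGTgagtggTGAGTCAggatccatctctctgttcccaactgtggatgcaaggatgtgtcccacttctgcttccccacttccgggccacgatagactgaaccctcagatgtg
Rims2, chr15:39517416-39517565, score 44.3: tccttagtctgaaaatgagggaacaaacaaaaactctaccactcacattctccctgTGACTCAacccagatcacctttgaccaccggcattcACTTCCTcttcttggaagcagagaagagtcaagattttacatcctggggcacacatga
Ocstamp, chr2:165225860-165225889, score 50.3: cagcaggtgaaGAGGAAGTgtggggatcgg

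The 36 h only sites were mostly weak peaks. Their scores ran from 17.7 to 137.5 with quartiles of 19.2, 20.7 and 26.6, against a median of 39.9 for the 41626 peaks present in all 3 PU.1 lists, 22.2 for the 2188 peaks shared with 72 h alone and 22.2 for the 1361 peaks shared with MPs alone. Of the 1272 sites, 538 scored under 20, 358 from 20 to 25, 242 from 25 to 35, 84 from 35 to 50 and 50 at least 50. Their share of all 36 h peaks fell with each step of score, from 9.32% (95% interval 8.60% to 10.1%) under 20 to 0.307% (0.233% to 0.404%) at 50 or more. Of the sites, 734 reached 2 times the lowest score of the MP list, 214 reached 3 times, 46 reached 5 times and 6 reached 10 times. The minimum fell in the thick of the distribution, since 312 sites scored 17.7 just inside it (Trmt2b, 6 bp before the TSS, and Gm7199, 24173 bp before it, are 2 of these) and 482 further unmatched 36 h peaks scored 16.3 just outside it (St18 and Eya1 are 2 of these).

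**Figure D1:**
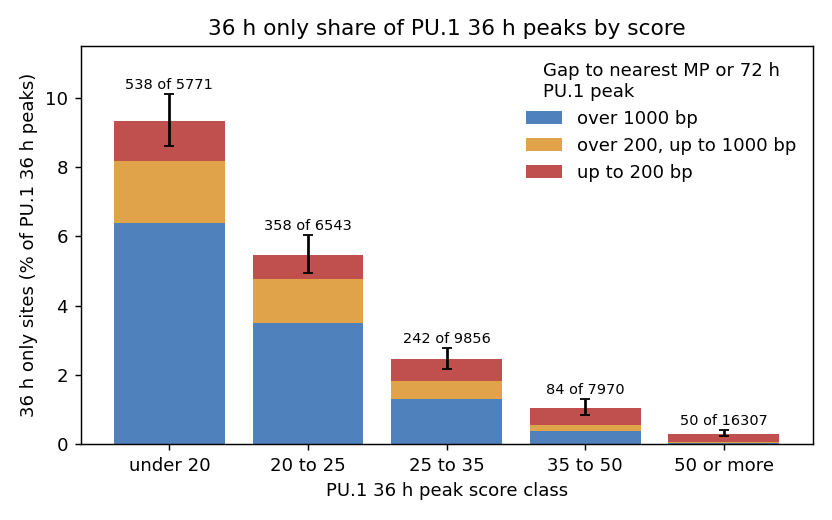
Share of PU.1 36 h peaks that were 36 h only (%, vertical axis) in 5 classes of the 36 h score (horizontal axis), with bars split by the gap to the nearest MP or 72 h PU.1 peak and 95% Wilson intervals for the whole bar. The share fell from 9.32% under a score of 20 to 0.307% at 50 or more, where most of the bar lies within 200 bp of a peak of another time.

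The label holds poorly for the highest sites. Many of these peaks sat beside, not apart from, a PU.1 peak of another time. A gap of up to 200 bp to an MP or 72 h PU.1 peak was found for 253 sites, a gap of over 200 and up to 1000 bp for 257 and a larger gap for 762, with a median gap of 1708 bp and 16 sites more than 100 kb away. Among the 50 sites that scored 50 or more, 39 were within 200 bp of such a peak (78.0%, 64.8% to 87.2%) and 5 were more than 1000 bp away. Among the 538 sites under 20, the counts were 66 and 369. All 10 of the highest sites had both an MP and a 72 h peak within 200 bp. The word only therefore describes the overlap of the called intervals and not, for these sites, the absence of PU.1 from the locus at other times.

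**Figure D2:**
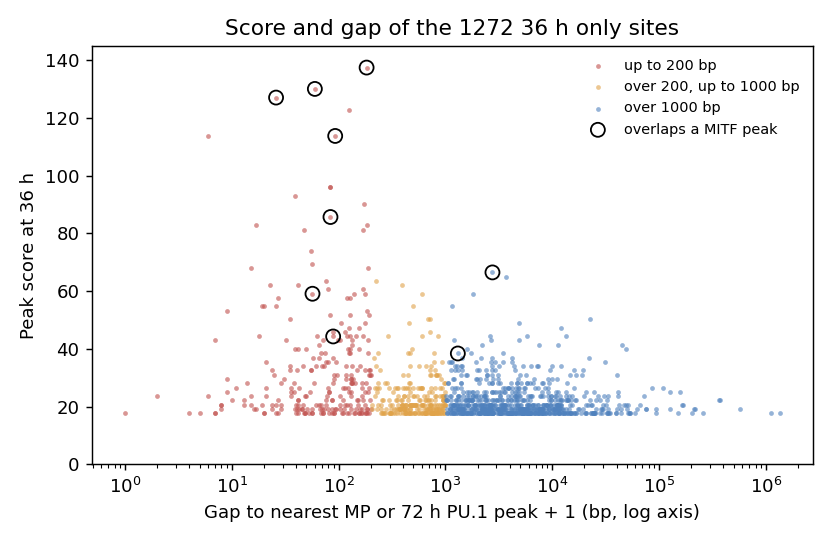
Score at 36 h (vertical axis) against the gap to the nearest MP or 72 h PU.1 peak plus 1 bp (horizontal log axis), 1 point per 36 h only site, colored by gap class, with circles around the 9 sites that overlap a MITF peak. Every site above 70 lies within 200 bp of a peak of another time.

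The neighbors of these 253 adjacent sites had similar scores to the sites. An MP neighbor within 200 bp was found for 219 sites, with a median score of 30.7 against 28.1 for the sites, and a 72 h neighbor for 215, with a median of 30.8 against 28.1. The ratio of the site to its neighbor had a median of 0.974 for MPs (quartiles 0.766 and 1.26) and 0.971 for 72 h (quartiles 0.796 and 1.20), and it lay between 0.5 and 2 for 211 of 219 and 212 of 215 pairs. None of these neighbors was overlapped by another 36 h peak (0 of 219 and 0 of 215). The spacing of 36 h peaks given below made such an overlap impossible for many pairs, so these counts are partly built in. Both neighbors were present for 181 of the 253 sites, and in 180 of these the MP and the 72 h peak overlapped each other. Over all 219 sites with an MP neighbor, the centers of site and neighbor were a median of 252 bp apart. In the 36 h list no pair of peaks had centers closer than 444 bp, whereas the MP and 72 h lists reached down to 370 bp. The centers of the neighbors lay 170 to 370 bp from the site. The peak widths and the limit of 200 bp set this range in advance, so by selection all were closer than any pair of the 36 h list. Centers closer than 444 bp to an MP or 72 h center were found for 278 of the 1272 sites and for 40 of the 50 that scored 50 or more. Whether spacing in the peak calling or binding itself set the position of these peaks was not tested.

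The 4 highest sites show this pattern. The highest, at chr15:27632508-27632698 and 21341 bp before the TSS of Fam105a, scored 137.5 (93 tags), with an MP peak of 187.6 at 182 bp and a 72 h peak of 157.1 at 188 bp. The second, at chr12:11336014-11336204 in an intron of Vsnl1, a neuronal calcium sensor gene, and 63417 bp after the TSS of Smc6, scored 130.1 between an MP peak of 143.3 at 59 bp and a 72 h peak of 123.3 at 67 bp. Its sequence, printed above, is an imperfect tandem repeat in which 70.0% of bases within 100 bp of the center recurred 30 bp further on. The third, at chr16:91452529-91452719 upstream of A930006K02Rik, scored 127.1, and its neighbors of 139.9 and 121.9 were 31 and 25 bp away. The fourth, at chr6:53398644-53398834, scored 122.7 with neighbors of 133.1 at 127 bp and 86.6 at 125 bp. Its nearest gene was a U1 small nuclear RNA copy, and its nearest protein-coding gene was the CREB family gene Creb5, 124639 bp away. At each of the 4 the 36 h score was of the same order as the scores of both neighbors.

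The next 6 sites by score were adjacent to peaks of both other times as well. They were at Grn, which encodes the lysosomal protein progranulin (113.8, 594 bp before the TSS), in an exon of the chromatin remodeler gene Chd7 (113.8), at Mdh1, a malate dehydrogenase gene (96.1, 196 bp after the TSS), 2393 bp before Rmnd5b (96.1), in an intron of the adhesion gene Cdh1, which encodes E-cadherin (93.1), and in an intron of the adrenergic receptor gene Adra1a (90.2). Their MP neighbors scored 104.1, 138.2, 141.6, 81.9, 81.9 and 87.0, in that order. The 5 highest sites within 1 kb of a TSS were those at Grn and Mdh1 and further ones at Grcc10 (82.8), Sf3a3, a splicing factor gene (69.5), and Gm11932 (68.0), the last inside the B cell regulator gene Bach2. All 5 were also within 200 bp of an MP peak.

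The 762 sites that lay more than 1000 bp from any MP or 72 h PU.1 peak had scores from 17.7 to 66.5 with a median of 20.7. Only 5 scored 50 or more, and these and the others given here were named after their values were seen. The highest of them, at chr2:28444158-28444348 and 4982 bp before Gtf3c5, a subunit gene of transcription factor IIIC, scored 66.5. A site in an intron of Slc2a1, the GLUT1 glucose transporter gene, scored 65.0 and was 276 bp before the TSS of Gm12867. A site 21 bp before the TSS of 1300018I17Rik scored 59.1. A site at chr10:24651402-24651592, 4221 bp before the TSS of Arg1, the arginase of alternatively activated macrophages, scored 54.7. A site in an intron of Tbc1d22a scored 50.3 and was 22424 bp from the nearest peak of either other list. Icam1, which encodes an adhesion molecule induced by inflammatory signals, had a site of 42.9 at 772 bp after its TSS. Met, the hepatocyte growth factor receptor gene, had an intronic site of 38.4.

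Of these separate sites, 421 had an MP or 72 h PU.1 peak within 5 kb. For 325 the nearest was more than 5 and up to 100 kb away, and for 16 it was farther. Several of the sites named above were near high MP peaks. The nearest MP peak scored 327.5 at the Gtf3c5 site (2757 bp away), 310.5 at the Slc2a1 site (3695 bp), 189.3 at the Arg1 site (1160 bp) and 153.5 at the Icam1 site (1201 bp). The site near Stxbp3a (48.8) had an MP peak of 58.0 at 9302 bp and a 72 h peak of 11.7 at 4900 bp. The site near Rims2 (44.3) was farther from both, with an MP peak of 13.6 at 13462 bp and a 72 h peak of 14.7 at 13476 bp. The median separate site had 1 MP peak and 1 72 h peak within 10 kb, against 2 of each for peaks in all 3 lists and 3 of each for the adjacent sites. Over all 1272 sites, gaps of more than 1 and up to 5 kb were the most common of the gap classes (421 sites, 33.1%), and 325 sites (25.6%) had gaps of more than 5 and up to 100 kb.

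Being seen at 36 h alone was no more common than being seen at another single time. With the same minimum and the same rule, 1813 of 47461 MP peaks (3.82%, 3.65% to 4.00%) were in the MP list alone and 1878 of 50607 peaks of the 72 h list (3.71%, 3.55% to 3.88%) were in that list alone, against 2.74% (2.59% to 2.89%) for 36 h. The lists differ in the score that 1 tag is worth (1.71 in MPs, 1.48 at 36 h and 1.47 at 72 h) and in peak width (150, 190 and 150 bp), and the part of these in the shares was not tested. Of the MP peaks past the minimum, 3315 were also called at 72 h but not at 36 h, and 234 of these had a 36 h peak within 200 bp. The adjacent kind made up 281 of the 1813 MP only sites and 272 of the 1878 sites of 72 h only. In IgG, the background control of MPs, 268 peaks were called on these chromosomes and 0 of the 1272 sites overlapped one. If a count of 0 is taken to allow 3 counts, this allows a share of up to 0.236%. The lowest IgG peak scored 22.4 (7 tags), above the median score of the sites (20.7). IgG signal as weak as most of the sites would thus not be called, and this count cannot show whether it was present there. Only 4 of all 46447 peaks of 36 h past the minimum overlapped an IgG peak.

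The AP-1 sequence set the 36 h only sites apart from the peaks called at all times. TGANTCA on either strand, with the center no more than 100 bp away, was present in 363 of the 1272 sites (28.5%, 26.1% to 31.1%), against 14.0% of all 36 h peaks past the minimum and 13.2% (12.9% to 13.5%) of peaks in all 3 lists. TGANTCA is the binding sequence of Fos and Jun dimers. Peaks shared with MPs alone held it in 25.6% (23.4% to 28.0%) and those shared with 72 h alone in 14.8% (13.4% to 16.4%). In the single-time sites of the other lists it was found in 12.3% (10.9% to 13.9%) of MP only sites and 5.70% (4.74% to 6.84%) of sites of 72 h only, and in 7.72% (6.86% to 8.68%) of MP peaks shared with 72 h but not 36 h. The 2 patterns with a 36 h peak and no 72 h peak thus had the highest shares of the 7 patterns, and the intervals of these 2 did not overlap those of the other 5. The same holds for peaks shared by 36 h and MPs when they were taken from the MP list (20.2%), and those shared by 36 h and 72 h had 10.1% (8.84% to 11.4%) in the 72 h list. With 1 library at each time the shares describe these lists, and no replicate shows how they would vary.

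**Figure D3:**
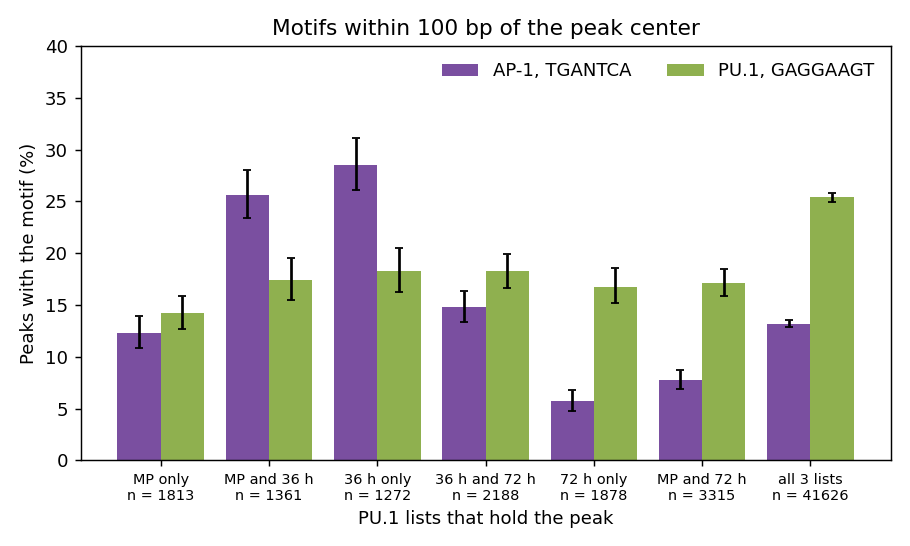
Share of PU.1 peaks (%, vertical axis) with the AP-1 or the PU.1 motif within 100 bp of the center, for each pattern of presence in the 3 PU.1 lists (horizontal axis), with 95% Wilson intervals. AP-1 stands at 28.5% in the 36 h only sites and 5.70% in those of 72 h only, while the PU.1 motif lies between 14.2% and 18.2% in all patterns but that of all 3 lists, where it is 25.4%.

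An AP-1 share above that of peaks in all 3 lists was found at every score and at both distances from genes. By score class the 36 h only sites had 26.8% under 20, 29.6% from 20 to 25 and 28.5% from 25 to 35. From 35 to 50 they had 29.8%, and at 50 or more 38.0%. Peaks of all 3 lists had 10.0%, 11.1%, 12.2%, 13.1% and 15.2% in these classes. Peaks shared with MPs alone had 20.2%, 27.6%, 29.3%, 37.6% and 14.55%, so the trait was not particular to the 36 h only sites. Within 1 kb of a TSS the 36 h only sites had 17.0% (12.6% to 22.5%) against 8.11% (7.46% to 8.80%) of peaks in all 3 lists. Farther away the shares were 30.9% (28.2% to 33.8%) and 14.1% (13.7% to 14.5%). Peaks shared with MPs alone had 11.2% within 1 kb and 28.4% farther away. The separate sites held the motif in 31.2% (28.0% to 34.6%), those with gaps of over 200 and up to 1000 bp in 30.4% (25.1% to 36.2%) and the adjacent sites in 18.6% (14.3% to 23.8%). More than 1 AP-1 sequence was found in 50 sites (3.93%), against 1.04% of peaks in all 3 lists, and the Arg1 site printed above holds 2 of them. The nearest AP-1 sequence was a median of 32.5 bp from the center of a 36 h only site and 39.5 bp in peaks of all 3 lists.

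Taken over all scores, the PU.1 motif itself was less frequent in the 36 h only sites than in the peaks of all times. GAGGAAGT was present in 232 sites (18.2%, 16.2% to 20.5%), against 24.6% of all 36 h peaks past the minimum, 25.4% of peaks in all 3 lists, 18.2% in those shared with 72 h alone and 17.4% in those shared with MPs alone. Under a score of 20 the shares of the sites and of peaks in all 3 lists were 16.7% (13.8% to 20.1%) and 21.0% (19.7% to 22.3%). They were 19.6% and 21.3% from 20 to 25, 16.1% and 21.2% from 25 to 35, and 19.05% and 23.9% from 35 to 50. At 50 or more they were 34% (22.4% to 47.9%) and 30.7%. The intervals overlapped in every score class, so within classes of like score the lower share was not clear. The shorter core AGGAAGT, which every GAGGAAGT contains, was present in 36.7% of sites and 45.8% of peaks in all 3 lists. AP-1 sequences were found in 22.1% of the sites with the core and in 32.3% of those without it, and 545 sites (42.8%) held neither. In the Stxbp3a and Rims2 sequences printed above the core and an AP-1 sequence stand together, while the Arg1 sequence has AP-1 alone and the Gtf3c5 sequence the core alone.

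Other motifs were rarer in the sites than these, and some were more and some less frequent there than in peaks of all 3 lists. The NF-kappaB sequence GGGANTTCC was in 3.62% (2.72% to 4.79%) of the sites against 2.01% (1.88% to 2.15%) of peaks in all 3 lists and 3.98% (3.24% to 4.88%) of those shared with 72 h alone. The C/EBP sequence TTGCNNAA was in 6.84% (5.58% to 8.36%) against 10.9% (10.6% to 11.2%). The IRF sequence GAAANNGAA was in 7.15% (5.86% to 8.70%) against 9.92% (9.64% to 10.2%), and the PU.1-IRF composite GGAAGTGAA in 1.89% (1.27% to 2.79%) against 4.52% (4.32% to 4.72%). The RUNX sequence TGTGGTT was in 4.80% and 6.44%, and the E-boxes CACGTG and CATGTG, bound by MITF, were in 16.8% and 17.4%. Peaks shared with 72 h alone had 8.09% for C/EBP, 7.40% for IRF, 2.10% for PU.1-IRF and 3.93% for RUNX. Those shared with MPs alone had 8.30%, 9.11%, 3.23% and 8.08%. Low shares of these motifs were thus not particular to the 36 h only sites. The CTCF sequence AGGGGGCGC was in 5 sites (0.393%) and in 0.180% of peaks in all 3 lists. Median GC content of the 200 bp was 49.5% in the sites and 48.0% in peaks of all 3 lists.

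The 36 h only sites were spread over genes much like other PU.1 peaks. The center was within 1 kb of a TSS for 218 sites (17.1%, 15.2% to 19.3%), at 1 to 3 kb for 148, at 3 to 5 kb for 115, at 5 to 10 kb for 188, at 10 to 100 kb for 542 (42.6%, 39.9% to 45.4%) and at more than 100 kb for 61. Peaks in all 3 lists had 15.4% (15.1% to 15.8%) within 1 kb and 44.4% (43.9% to 44.9%) at 10 to 100 kb. The sites were in introns for 651 (51.2%, 48.4% to 53.9%), outside genes for 510 (40.1%) and in exons for 111 (8.73%), against 51.0%, 41.8% and 7.22%. Every chromosome held some, from 2.09% of the 36 h peaks of chromosome 5 to 3.11% of those of chromosome 8.

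The subsets differed in place more than the sites as a whole. Within 1 kb of a TSS lay 24.5% (19.6% to 30.2%) of the adjacent sites and 26.1% (21.1% to 31.8%) of those with gaps of over 200 and up to 1000 bp, but 11.7% (9.59% to 14.2%) of the separate sites, whose interval is below that of the peaks in all 3 lists. These subsets were split by the gap to other PU.1 peaks, while peaks in all 3 lists overlap such peaks by definition. The part of this split in the differences was not tested. The separate sites had a median distance of 11240 bp to a TSS and the adjacent sites one of 7500 bp.

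**Figure D4:**
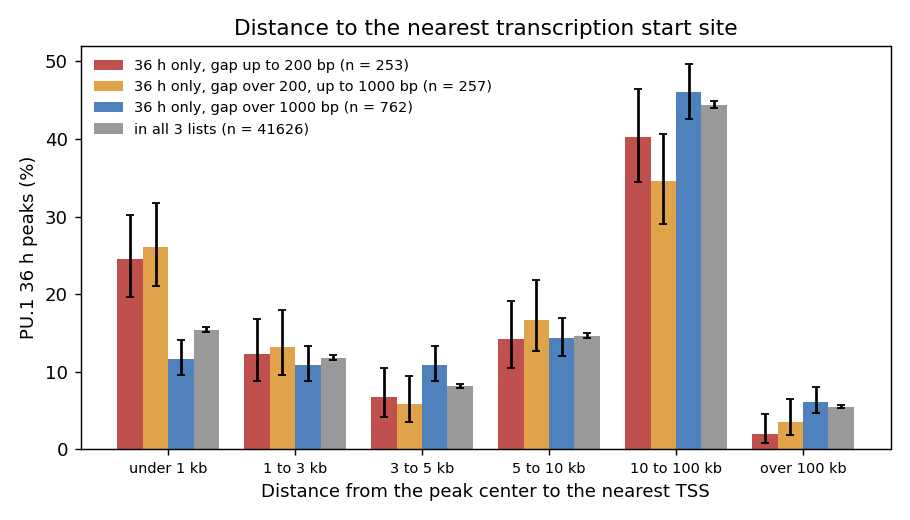
Share of PU.1 36 h peaks (%, vertical axis) in 6 classes of distance from the peak center to the nearest TSS (horizontal axis) for the 3 gap classes of 36 h only sites and for peaks in all 3 PU.1 lists, with 95% Wilson intervals. Under 1 kb the separate sites stand at 11.7% and the other sites at 24.5% and 26.1%, with 15.4% for peaks in all 3 lists.

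Few of the sites carried MITF. A MITF MP peak overlapped 4 of the 1272 sites (0.314%, 0.122% to 0.806%), against 11.3% of all 36 h peaks past the minimum. A MITF 36 h peak overlapped 5 (0.393%, 0.168% to 0.917%), against 7.14%, and a MITF 72 h peak 6 (0.472%, 0.216% to 1.03%), against 8.87%. Any of the 3 MITF lists overlapped 9 sites, 7 of which were adjacent to an MP or 72 h PU.1 peak and 2 of which were separate. Peaks shared with 72 h alone (0.320% with MITF 36 h) and with MPs alone (0.220%) were as low as the 36 h only sites (0.393%), with overlapping intervals, and peaks in all 3 lists had 7.93%.

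Much of this difference went with score. Of the 1138 sites under a score of 35, 0 overlapped a MITF peak, which by the same limit of 3 counts allows a share of up to 0.264%, and of 17919 peaks in all 3 lists under that score 192 did (1.07%). At 50 or more, 7 of 50 sites (14.0%, 6.95% to 26.2%) and 6476 of 16118 peaks in all 3 lists (40.2%, 39.4% to 40.9%) overlapped a MITF peak of any list. This class has no upper limit, and scores reached 137.5 in the sites and 372.5 in peaks of all 3 lists. Peaks of 50 or more shared with 72 h alone had 15 of 84 (17.9%, 11.1% to 27.4%). Those shared with MPs alone had 6 of 55 (10.9%, 5.10% to 21.8%). In that class the MITF 36 h list overlapped 5 of 50 sites (10.0%, 4.35% to 21.4%) and 19.7% (19.1% to 20.4%) of peaks in all 3 lists, whose intervals overlapped.

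**Figure D5:**
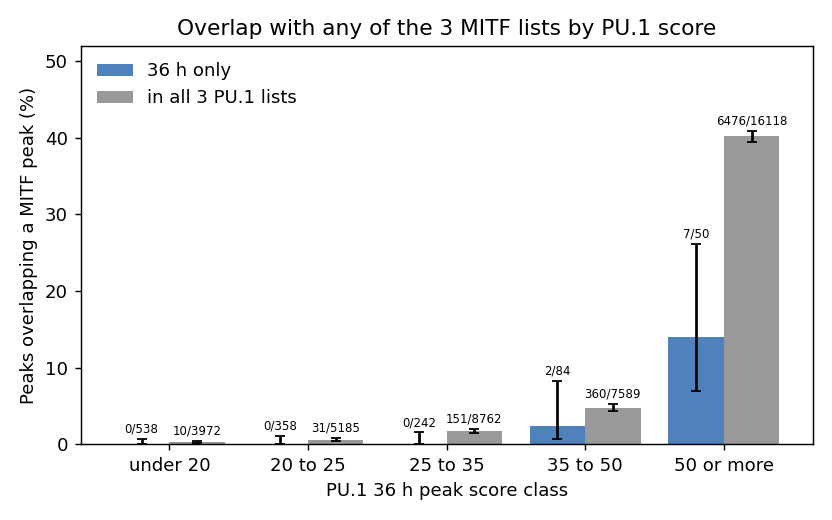
Share of PU.1 36 h peaks (%, vertical axis) that overlap a peak of any of the 3 MITF lists, by class of PU.1 score (horizontal axis), for 36 h only sites and for peaks in all 3 PU.1 lists, with 95% Wilson intervals and counts. At 50 or more 7 of 50 sites and 6476 of 16118 peaks in all 3 lists overlap.

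The 5 sites with a MITF 36 h peak were the 3 highest by score, a site 9526 bp before Esr1 and the Gtf3c5 site. At the Fam105a site MITF scored 16.6 in MPs, 33.1 at 36 h and 11.4 at 72 h. At the Vsnl1 intron it scored 112.9 at 36 h and 22.8 at 72 h, with no peak in MPs, and at A930006K02Rik it scored 22.4 at 36 h alone. At chr10:5744379-5744569, upstream of the estrogen receptor gene Esr1, the PU.1 score was 85.7 and MITF scored 14.5 in MPs, 255.0 at 36 h and 12.6 at 72 h. That window holds 4 copies of GAGGAAGT, and 73.8% of its bases recurred 32 bp further on, so it is repetitive like the Vsnl1 site, and both are the sites with the highest MITF 36 h scores. At Gtf3c5 MITF scored 12.5 in MPs, the median of that list, and 9.70 at 36 h, the lowest score of that list.

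A MITF peak of another time was found at 4 further sites. Grn overlapped MITF in MPs (12.5). The 3 that overlapped MITF at 72 h alone were in an exon of 1700081L11Rik (10.3), in an intron of CN725425 (11.4) and in an intron of Arhgap24 (9.10), which encodes a GTPase-activating protein, and were named after their values were seen. Of these the Arhgap24 site was separate, 1314 bp from an MP PU.1 peak of 334.3. The MITF score at the Arhgap24 site was the lowest of the MITF 72 h list.

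The sites were nearest to 1181 of 37252 annotated genes (3.17%) and thus to 7.31% of the 16161 genes that were nearest to any 36 h peak past the minimum. For 1103 of these genes there was 1 site, for 66 there were 2, for 11 there were 3 and for Tbc1d22a, a Rab GTPase-activating protein family gene, there were 4. Those 4 sites scored from 19.2 to 50.3 at 3218 to 209203 bp from the TSS, were all separate and stood among 24 peaks of 36 h past the minimum nearest to that gene. Cd44, the hyaluronan receptor gene, had 3 sites, at 65930, 74798 and 85423 bp before its TSS, that scored 35.5, 20.7 and 22.2. Genes with 3 sites also included H2afy3 (22.2 to 63.6), N4bp1 (22.2 to 26.6), Sept9 (17.7 to 26.6), a SNORA17 copy (19.2 to 25.1), Iqsec1 (19.2 to 23.7) and Nek7 (17.7 to 22.2). Myc is the closest protein-coding gene to the H2afy3 sites, but its TSS is 203629 to 313757 bp away. The nearest gene was not always clear, since the RefSeq transcript named in the list gave the same symbol for 773 of 1232 sites with a known transcript.

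Genes of osteoclast function had 3 sites among 20 genes (15%, 5.24% to 36.0%). Of all annotated genes 3.17% had one, and of those nearest to any 36 h peak past the minimum 7.31%. As stated below, nothing particular to a list is read from its count. The highest was at the start of Ocstamp, which encodes a membrane protein of osteoclast fusion and is annotated as 4833422F24Rik. This site, at chr2:165225799-165225989 and 11 bp after the TSS in the first exon, scored 50.3 (34 tags) at 36 h and holds 1 PU.1 motif, printed above. Its nearest MP peak was 1621 bp away and scored 131.3, and its nearest 72 h peak was 681 bp away and scored 13.2. No MITF peak overlapped it. The other 2 were near Snx10, a sorting nexin gene needed for resorption (23.7, 24640 bp before the TSS), and Cst3, the cystatin C gene (17.7, adjacent to an MP peak of 11.9).

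Genes for fusion, adhesion and the cytoskeleton had 6 with a site among 26. Besides Cd44 these were the tetraspanin gene Cd9 (39.9, 127 bp from an MP peak of 49.5), Cdc42, a small GTPase gene (31.0), Cd47, which encodes the ligand of SIRP alpha (22.2), Dock5, a Rac activator gene (20.7), and the vinculin gene Vcl (17.7). The Cdc42, Cd47 and Dock5 sites were separate. Genes of ITAM and calcium signalling had 4 of 22, namely the adaptor genes Lcp2 (32.5) and Blnk (32.5), the phospholipase gene Plcg2 (26.6) and the exchange factor gene Vav1 (17.7), and none of these 4 sites was separate, although a second Blnk site (22.2) was. Of the RANK and NF-kappaB list only Traf2, a TRAF adaptor gene, had a site, 1 of 23 (39.9), and a 72 h peak of 39.6 stood 38 bp from it.

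Regulators of the lineage had weak sites. Of 30 osteoclast transcription factor genes 3 had one, Stat3 (19.2), Fos (17.7, 51311 bp after the TSS) and Fosb (17.7, with an MP peak of 10.2 at 85 bp). Among inhibitors of osteoclast differentiation, the transcriptional repressor gene Bcl6 had an intronic site of 22.2, which was separate. Of 30 genes of chemokine, cytokine and growth factor signalling 2 had one, Tgfbr1 (20.7) and Csf1 (17.7). These sites hold 12 to 15 tags each, where the rule itself requires at least 12 and the lowest peak of the 36 h list has 7.

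Marker genes of macrophages had no site (0 of 24), and neither had those of erythroid cells and megakaryocytes (0 of 11) or of mesenchymal cells (0 of 13). Other lineages had 1 or 2 each: Itgax of dendritic cells, which encodes CD11c (32.5, 50 bp before the TSS, separate, with an AP-1 sequence), and Irf4 (19.2) of 12, Cebpe (19.2) and S100a9 (17.7) of 13 granulocyte genes, Bank1 (28.1) of 14 B cell genes and Gata3 (19.2) of 15 T and NK cell genes. Beside the 3.17% of all annotated genes, the shares of the lists ran from 0% to 23.1%, on 11 to 30 genes each and with wide intervals, such as 11% to 42.1% for fusion, adhesion and cytoskeleton. Genes of these lists are also more often near a PU.1 peak, 24 of 26 in that list and 16161 of 37252 among all, and nothing particular to any list is read from its count.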

How the data were processed

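PU.1, MITF and IgG libraries of MPs and of cells at 36 h and 72 h of RANKL were grouped by their labels, 1 library each. Per the labels the authors used CASAVA 1.8, Bowtie2, HOMER and mm9, with no roles or settings given. The deposited lists give a HOMER peak score (tags in the peak, scaled by the authors' software) and the nearest RefSeq transcript. Reads were not used here.

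Overlap needed 1 bp, and touching intervals (1 site) did not count. The 36 h peaks were 190 bp wide and the MP and 72 h peaks 150 bp. Nearest TSSs, introns and exons came from GENCODE vM1 of NCBIM37 (mm9) at the peak center. Motifs were searched within 100 bp of it. Shares were given 95% Wilson intervals, which cover the counting error of peaks or genes only and not variation between libraries. No test across conditions was possible with 1 library each. Tags were scores divided by the step between scores.

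The members, gene lists and motifs were chosen with earlier results of these data known. Named sites were the 10 highest scores, genes with a site in 14 lists (up to 6 each), sites with MITF, genes with 3 or more sites (up to 8), the 5 highest within 1 kb of a TSS and 2 on each side of the minimum. One site that the rule names is not reported here. Sites said to be named after their values were seen are exceptions. Alternatives were stricter or looser absence, a doubled minimum, removal of IgG peaks, peak widths, annotation, MITF overlap and motif windows. Python 3.11.15, numpy 2.4.6, pandas 2.3.3 and scipy 1.17.1 were used, and bedtools 2.31.1 also found 1272 sites. Gap and motif searches were checked on simulated intervals and sequences.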

Additional observations from a re-analysis of the deposited data

How the results depend on the processing

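Of 84 alternative values, 53 stayed within the interval of the main value, or within 1.5 times it for counts, and 31 moved. Trimming the 36 h peaks to 150 bp and widening the others to 190 bp moved none of them (both were chosen after seeing the data, as was the AP-1 share). Removing IgG peaks moved none either, but 0 of the 1272 sites overlapped one, so the site values could not change. The values of that alternative are counted among the 53. With the minimum doubled, 134 sites remained (0.552% of peaks) near 133 genes, 24.6% of them within 1 kb of a TSS, 47.0% in introns, 3.73% with MITF 36 h, 6.72% with any MITF, 24.6% with the PU.1 motif and 32.8% with AP-1. Without sites within 200 bp of an MP or 72 h peak the share was 2.19%, with 0.0981% on MITF 36 h and 0.196% on any MITF. Without those within 1000 bp, 762 sites (1.64%) near 725 genes were left, 11.7% within 1 kb and 46.1% at 10 to 100 kb of a TSS, with 0.131% on MITF 36 h, 0.262% on any MITF and 31.2% with AP-1. Where only MP and 72 h peaks that reached the minimum counted as present, there were 4469 sites (9.62%) near 3743 genes, with 0.291% on any MITF and 23.2% with AP-1. With protein-coding genes only, 45.4% were at 10 to 100 kb. MITF of any list was within 500 bp of 2.04%, and 0.314% overlapped a MITF peak of at least 2 times the lowest score. In 50 bp each side of the center, 16.2% had the PU.1 motif and 19.3% AP-1 (7.79% in peaks of all 3 lists). With AGGAAGT as the PU.1 motif in the main window of 100 bp each side, the share was 36.7%. No paired analysis was possible because each condition has 1 library and no test was made. A score of 17.7 rests on 12 tags, which limits what absence from the other lists can show.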
